A study of Mus musculus with 17 samples.

Results

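The laminins of mouse skeletal muscle and the integrin receptors that face them were followed here as 10 genes: the laminin chain genes Lama2, Lama4, Lama5, Lamb1, Lamb2 and Lamc1, and the integrin genes Itga7, Itga6, Itga5 and Itgb1. They were chosen by gene symbol and make up 10 of the 12393 genes tested on the arrays, or 22 of the 20380 probe sets with a single gene symbol. RNA of the tibialis anterior muscle at the front of the shin was measured on 17 single-colour Affymetrix arrays, 1 per animal sample, as deposited log2 signals. The arrays held 5 samples of fiona mice, 6 of mdx mice and 6 of normal wild-type mice. The mdx mouse carries a mutation in the dystrophin gene Dmd, and the fiona mouse is a transgenic line with a high level of utrophin on the mdx background, so that the Dmd mutation is shared by fiona and mdx mice and absent from normal mice. The labels give all animals as males aged 56 days, with the muscles of both legs pooled. The promoter of the utrophin transgene and the strain of the normal mice are not given in the sources used here.

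Each laminin is a trimer of an α, a β and a γ chain, secreted into the basement membrane that wraps every muscle fibre, vessel and nerve. The trimer of the α2, β1 and γ1 chains, from Lama2, Lamb1 and Lamc1, is the main laminin around adult muscle fibres, and loss of LAMA2 causes a congenital muscular dystrophy in humans. Laminins with the α4 and α5 chains are best known from vessels and nerves, and the β2 chain of Lamb2 is concentrated at the neuromuscular synapse. Muscle fibres hold on to laminin through dystroglycan, which dystrophin and utrophin tie to the cytoskeleton, and through the integrin of the α7 chain (Itga7) and the β1 chain (Itgb1). The α6 chain (Itga6) pairs with β1 as a laminin receptor on many other cells. Itga5 does not match the name of the group: the α5β1 integrin is known as the receptor for fibronectin and not for laminin, and it is kept here as a member by symbol.

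The targeted genes were read first, as a check of the labels. On the Dmd probe set 1417307_at the signal lay between 3.23 and 3.53 on the fiona arrays and between 3.27 and 3.52 on the mdx arrays, against 6.33 to 6.88 on the normal arrays. Utrn on probe set 1427569_a_at read 4.94, 3.04, 3.78, 7.28 and 2.48 on fiona arrays 1 to 5, against 2.04 to 2.10 on the mdx arrays and 2.07 to 2.17 on the normal arrays. Every fiona array was above every mdx and normal array on this probe set, but fiona arrays 2, 3 and 5 by far less than fiona arrays 1 and 4. The other Utrn probe sets did not separate the groups in this way. On 1426892_at the fiona arrays read 6.39, 2.68, 3.54, 7.02 and 3.02, against 2.58 to 2.67 on the mdx arrays and 2.57 to 2.77 on the normal arrays, so that fiona array 2 lay within the normal range. On 1452222_at the fiona mean was the lowest, at 6.57 ± 0.82 (SD, n = 5), against 6.98 ± 0.39 in mdx and 6.81 ± 0.26 in normal muscle (n = 6 each), with fiona array 5 at 5.21. The muscle itself was plain on all arrays: the summed signal of 10 muscle fibre genes, among them Ckm and Acta1, lay between 17.95 and 18.15 in fiona, 17.84 and 18.05 in mdx and 17.92 and 18.17 in normal samples on the log2 scale.

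Certain arrays stood apart in ways the groups do not explain. After the group means were removed, the largest component of the remaining variance (42.6%) divided the arrays into 2 sets. Set 1 held fiona arrays 1 and 4, mdx arrays 3, 4 and 5 and normal arrays 3, 4 and 5, and set 2 held the rest. No label names a batch, so these are called array sets and nothing more. They were drawn from the same values that are tested below. A fit with the set as a block therefore has a smaller residual spread by construction, and its calls are no independent support. In addition 7 arrays, namely fiona 1, 2, 3 and 5, mdx 1 and 4 and normal 6, had high Xist with low Eif2s3y, the pattern of females, although the labels give males. A further array, mdx 6, had high Eif2s3y (8.11) together with an intermediate Xist of 5.40, where the other arrays of the male pattern had at most 2.47. It was kept among the arrays of the male pattern, and it held the second highest Itga5 value (5.03) and a Lamc1 signal of 8.41. The background level of each array was taken as the median of 15 bacterial control probe sets that match nothing in a mouse sample, and it lay between 2.64 and 2.99. Of the 22 probe sets, 16 were above it on at least 5 arrays. The other 6, which lay at or below it on nearly every array, were the second probe sets of Lama4 (1424808_at), Lama5 (1427010_s_at), Lamc1 (1423886_at), Itga5 (1423268_at), the third of Lamb1 (1451241_at) and 1 of Itgb1 (1438119_at). Among these only Lamb1 1451241_at rose above background anywhere, at 4.31 on mdx array 4. Signals of different probe sets cannot be compared with each other, so each is compared only with itself across samples.

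The regions before the start of the α2 and β1 chain genes, each with a probe set that passed the test between fiona and mdx muscle below, are shown beside those of the β2 and α5 chain genes, which had none. Each holds the 250 bases before the start of transcription on the gene's own strand, 5′ to 3′, from the RefSeq promoter table of build GRCm38.p6, which matched 6 of the 10 members. Capitals mark matches to motifs searched on both strands, namely the GC box GGGCGG, the E-box CANNTG, the TATA box TATAAA and the AP-1 element TGANTCA. No matches overlapped in these windows. The α2 gene window lies at chr10:27616943-27617192 on the minus strand, the β1 gene window at chr12:31265043-31265292 on the plus strand, the β2 gene window at chr9:108479612-108479861 on the plus strand and the α5 gene window at chr2:180225860-180226109 on the minus strand.
Lama2: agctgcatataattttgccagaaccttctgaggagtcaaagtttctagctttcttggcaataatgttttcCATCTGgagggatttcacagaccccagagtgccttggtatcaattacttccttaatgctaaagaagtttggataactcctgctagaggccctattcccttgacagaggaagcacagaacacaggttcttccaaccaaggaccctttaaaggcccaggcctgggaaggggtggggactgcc
Lamb1: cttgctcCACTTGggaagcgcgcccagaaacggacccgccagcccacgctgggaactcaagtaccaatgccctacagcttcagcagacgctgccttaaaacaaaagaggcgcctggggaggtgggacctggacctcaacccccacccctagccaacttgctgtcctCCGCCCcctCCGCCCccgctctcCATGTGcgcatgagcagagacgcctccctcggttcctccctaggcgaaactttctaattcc
Lamb2: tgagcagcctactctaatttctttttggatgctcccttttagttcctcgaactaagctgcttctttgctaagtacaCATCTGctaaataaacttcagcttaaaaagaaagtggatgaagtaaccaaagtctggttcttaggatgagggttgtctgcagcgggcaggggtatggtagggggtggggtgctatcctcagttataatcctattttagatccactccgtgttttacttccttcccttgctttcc
Lama5: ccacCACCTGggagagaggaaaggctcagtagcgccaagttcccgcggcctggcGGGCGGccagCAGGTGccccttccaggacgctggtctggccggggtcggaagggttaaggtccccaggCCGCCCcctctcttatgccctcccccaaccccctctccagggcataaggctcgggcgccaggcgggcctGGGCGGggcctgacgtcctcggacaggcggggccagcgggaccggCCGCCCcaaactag
The windows of Lama2 and Lamb2 held no GC box and 1 E-box each. That of Lamb1 held 2 GC boxes and 2 E-boxes, and that of Lama5 held 4 GC boxes and 2 E-boxes. Base composition differed in parallel, with 47.2% G and C for Lama2, 62.0% for Lamb1, 43.6% for Lamb2 and 72.4% for Lama5. Neither a TATA box nor an AP-1 element in these letters was found in any of them. Among all 32851 windows of the table, 32.7% held a GC box, 66.2% an E-box, 12.4% a TATA box and 6.75% an AP-1 element.

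Differences between groups were tested for every probe set in 1 limma fit, with Benjamini-Hochberg adjusted p-values across the 20380 probe sets, and a probe set was called at an adjusted p under 0.05. In mdx against normal muscle, 0 of the 22 member probe sets were called by limma, beside 4.05% of all probe sets; 7 of the 22 had an unadjusted p under 0.05, as had 3560 of all. In fiona against mdx muscle 8 of 22 were called, 4 of them lower and 4 higher, beside a background of 40.2% of all probe sets, which divides into 6.05% lower and 34.1% higher. In fiona against normal muscle 0 of 22 were called, beside 0.00491% of all, which is 1 probe set; 2 of the 22 had an unadjusted p under 0.05, as had 4401 of all. The share of higher calls in fiona muscle depended on the scaling. The median difference of all probe sets between fiona and mdx was 0.08 on the deposited log2 scale and −0.02 once the array medians were set equal, and the calls numbered 6955 higher and 1232 lower as deposited, 1330 higher and 1051 lower with equal medians, and 2078 higher and 821 lower after quantile normalization. With 1 probe set per gene, 3 of the 10 genes were called as lower in fiona muscle, namely Lama2, Lama4 and Lamc1, where 6.79% of all genes were called lower.

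Among the laminins, the α2 and γ1 chains had the smallest p-values between fiona and mdx muscle. Lama2 had signals of 5.77, 6.44, 6.45, 6.13 and 6.14 on the 5 fiona arrays, against a lowest of 6.14, a median of 7.30 and a highest of 8.24 on the mdx arrays. In normal muscle the lowest, median and highest were 6.00, 6.15 and 6.96. The fiona values sat within the normal range or just below it, and 5 of the 6 mdx values lay above every normal value, while mdx array 2 sat at the normal level. Lama2 fell in fiona muscle relative to mdx muscle by 1.11 on the log2 scale (2.16-fold lower, SE 0.29, limma adjusted p = 0.0133), and the call held in all 17 fits that left out a single array. It ended with quantile normalization (−0.90, adjusted p = 0.0501). Between mdx and normal muscle Lama2 differed by 0.98 (1.97-fold, SE 0.28, adjusted p = 0.067), which did not pass. Between fiona and normal muscle the difference was −0.13 (SE 0.29, adjusted p = 0.824). The fiona comparisons and the mdx comparison share arrays, so their values are not independent of each other.

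Lamc1, the γ1 chain that is part of nearly all laminin trimers, had signals of 6.78, 7.56, 6.66, 6.67 and 7.12 on the fiona arrays, against 7.28, 7.99 and 8.60 as the lowest, median and highest of the mdx arrays. The normal arrays spanned 6.75 to 7.70 with a median of 7.38. In this gene 4 of the 5 fiona arrays lay below every mdx array, and 4 of the 6 mdx arrays lay above every normal array. Lamc1 fell by 1.03 in fiona relative to mdx muscle (2.04-fold lower, SE 0.24, adjusted p = 0.013), and the call held in all 17 fits without a single array and under both other scalings. The difference between mdx and normal muscle was 0.70 (SE 0.23, adjusted p = 0.117), and that between fiona and normal muscle was −0.33 (SE 0.24, adjusted p = 0.408).

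Lama4, the α4 chain, had signals of 6.13, 6.61, 6.21, 5.70 and 6.16 on the fiona arrays, against a range of 6.35 to 7.44 with a median of 6.84 on the mdx arrays. Normal muscle ranged between 5.47 and 6.62 with a median of 6.22, so that fiona array 2 alone reached into the mdx range and 4 of the 6 mdx arrays lay above all normal arrays. Lama4 fell by 0.72 in fiona relative to mdx muscle (1.65-fold lower, SE 0.24, adjusted p = 0.0271). That result no longer passed when fiona array 4 was left out (−0.60, adjusted p = 0.0653), and likewise for fiona array 5 (−0.72, 0.0535), mdx array 1 (−0.64, 0.0542) and mdx array 4 (−0.61, 0.0582), or with quantile normalization (−0.52, adjusted p = 0.142). Between mdx and normal muscle the difference was 0.75 (SE 0.23, adjusted p = 0.084), and between fiona and normal muscle 0.03 (SE 0.24, adjusted p = 0.957). Lama5, the α5 chain, showed no such pattern. Its brightest probe set averaged 5.16 ± 0.60 in fiona muscle (SD, n = 5), 4.85 ± 0.58 in mdx muscle and 4.88 ± 0.27 in normal muscle (n = 6 each), with adjusted p-values between 0.43 and 0.959 in the 3 comparisons.

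The β1 chain gene Lamb1 was read by 2 probe sets above background, and both were most variable among the mdx arrays. On the brighter, 1424113_at, the fiona arrays read 6.78, 6.90, 6.77, 7.20 and 7.47, the mdx arrays ranged between 6.29 and 9.22 with a median of 7.56, and the normal arrays between 6.20 and 7.35 with a median of 6.67. The groups overlapped: mdx arrays 1 and 4 held the high values of 8.49 and 9.22. The values of mdx arrays 2, 5 and 6, at 6.29, 7.33 and 7.06, were within the normal range. The fiona and mdx groups differed by −0.67 (SE 0.41, adjusted p = 0.201), and that between mdx and normal muscle 1.01 (SE 0.39, adjusted p = 0.189). Leaving out mdx array 2 brought calls in both, at −0.96 (adjusted p = 0.0433) for fiona against mdx and 1.29 (adjusted p = 0.0438) for mdx against normal muscle. The other, 1424114_s_at, whose suffix means that its probes can match more than 1 transcript, gave 4.54 ± 0.36 in fiona (SD, n = 5), 5.98 ± 1.40 in mdx and 4.48 ± 0.57 in normal muscle (n = 6 each). It fell by 1.44 in fiona relative to mdx muscle (2.71-fold lower, SE 0.54, adjusted p = 0.0446), a call that was lost in 12 of the 17 fits without a single array (adjusted p up to 0.0889) and with equal array medians (−1.54, adjusted p = 0.0769).

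Lamb2, the β2 chain, differed little between groups. Its signals were 7.85, 8.42, 8.77, 7.20 and 9.20 on the fiona arrays, against 7.14 to 8.68 on the mdx arrays and 7.12 to 8.77 on the normal arrays. The groups overlapped throughout, and in each of them the arrays of set 1 lay below those of set 2. The difference was 0.29 (SE 0.41, adjusted p = 0.607) between fiona and mdx muscle, −0.12 (SE 0.39, adjusted p = 0.845) between mdx and normal muscle and 0.17 (SE 0.41, adjusted p = 0.836) between fiona and normal muscle.

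**Figure D1:**
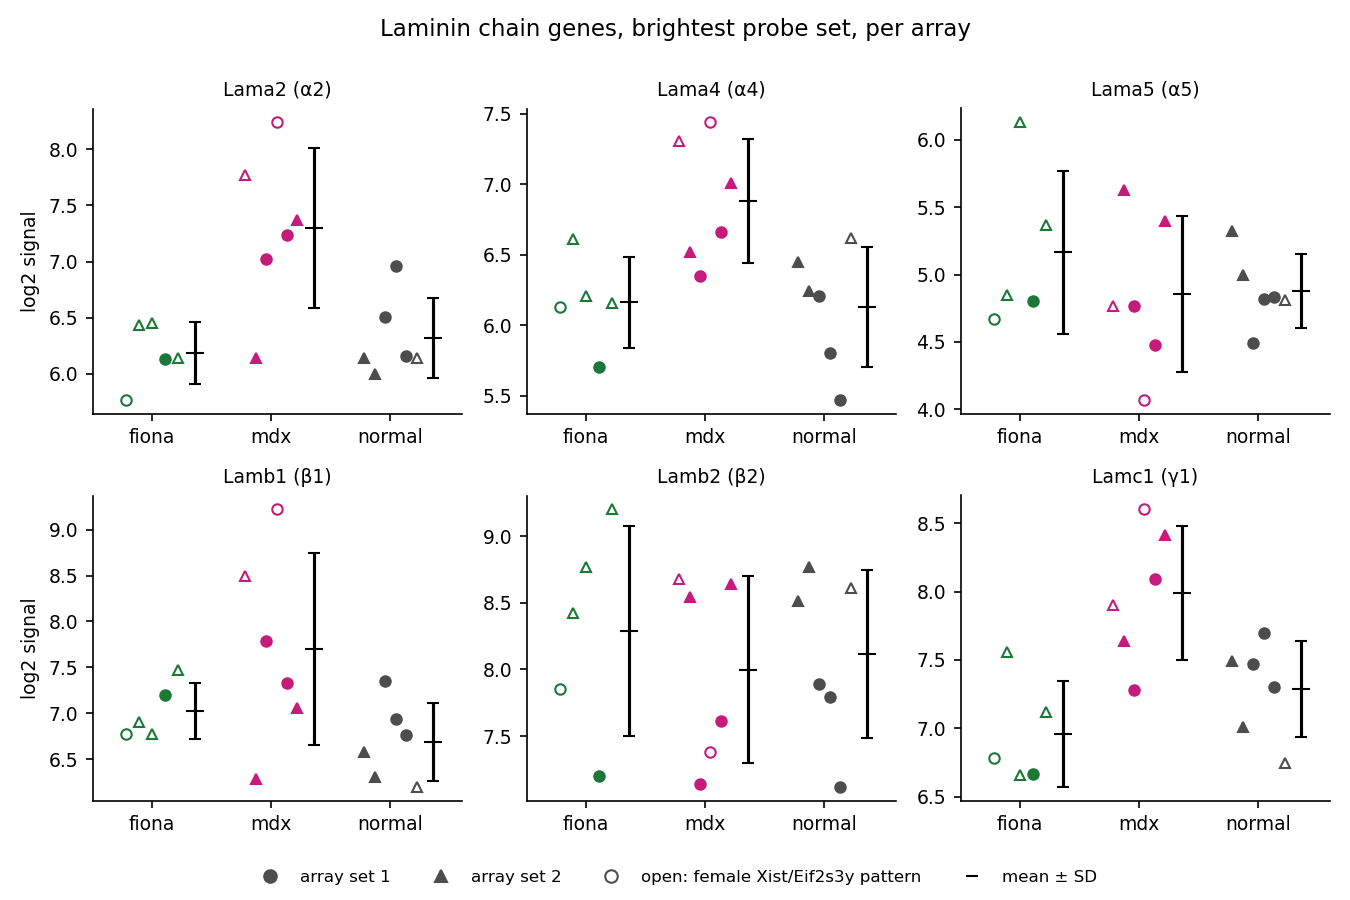
Deposited log2 signal of the 6 laminin chain genes on their brightest probe sets, 1 symbol per array, for fiona, mdx and normal muscle from left to right; circles are array set 1, triangles array set 2, open symbols arrays with the female pattern, and the bar is the mean ± SD. In Lama2, Lama4 and Lamc1 most mdx arrays lie above the fiona and normal arrays, in Lamb1 only some do, and in Lama5 and Lamb2 the groups overlap.

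Among the integrin α chains, the muscle laminin receptor chain Itga7 had higher signals on most mdx arrays than on the normal arrays, but was not called on the deposited values. Its signals were 5.47, 6.61, 6.42, 4.55 and 6.69 on the fiona arrays, against a range of 6.15 to 7.40 with a median of 6.72 on the mdx arrays and 5.23 to 6.31 with a median of 5.87 on the normal arrays. In the normal group the 3 arrays of set 1 lay between 5.23 and 5.46 and the 3 of set 2 between 6.28 and 6.31, and fiona arrays 1 and 4, also of set 1, were the lowest of their group. The difference was 0.93 between mdx and normal muscle (1.90-fold, SE 0.37, adjusted p = 0.205), −0.80 between fiona and mdx muscle (SE 0.38, adjusted p = 0.11) and 0.13 between fiona and normal muscle (SE 0.38, adjusted p = 0.876). With the array set, which was drawn from these same values, as a block, Itga7 was called in both comparisons with mdx muscle. The difference was then 0.93 between mdx and normal (adjusted p = 0.0339) and −0.89 between fiona and mdx (adjusted p = 0.0188), a fit in which 44.2% of all probe sets were called between fiona and mdx muscle.

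Itga6 was measured by 2 probe sets that disagreed. On 1422445_at the groups were close, at 7.61 ± 0.13 in fiona (SD, n = 5), 7.41 ± 0.18 in mdx and 7.22 ± 0.48 in normal muscle (n = 6 each), and 0 of 3 comparisons were called (adjusted p between 0.233 and 0.457). On 1422444_at the fiona arrays read 7.61, 5.52, 6.70, 7.27 and 6.99 and the normal arrays lay between 6.33 and 7.01. The mdx arrays fell apart on it, with 7.30, 7.53 and 7.29 on arrays 3, 4 and 5 and 4.13, 5.65 and 4.22 on arrays 1, 2 and 6. The last 3 are the mdx arrays of set 2, and 1422445_at did not show their low values (7.56, 7.35 and 7.44). The difference between mdx and normal muscle on 1422444_at was therefore 0.58 within set 1 and −1.95 within set 2, and no direction can be given for Itga6.

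Itga5, the α chain of the fibronectin receptor, was close to background. Its brighter probe set, 1423267_s_at, was above background on 4 of 5 fiona, 6 of 6 mdx and 4 of 6 normal arrays. The fiona arrays read 2.76, 3.27, 3.36, 3.14 and 3.25, the mdx arrays ranged between 2.72 and 5.31 with a median of 3.64, and the normal arrays between 2.69 and 3.23. High values were limited to mdx arrays 1 and 6, with 5.31 and 5.03, and the other mdx arrays were at most 3.77. The difference was −0.76 between fiona and mdx muscle (SE 0.38, adjusted p = 0.122) and 0.90 between mdx and normal muscle (SE 0.36, adjusted p = 0.214). The first was called with the array set as a block (−0.84, adjusted p = 0.0335), beside 44.2% of all probe sets, and without mdx array 3 (−1.0, adjusted p = 0.0397). The second Itga5 probe set was called higher in fiona than in mdx muscle, but it was below background on all 17 arrays and its call was lost when the array medians were set equal (adjusted p = 0.429).

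**Figure D2:**
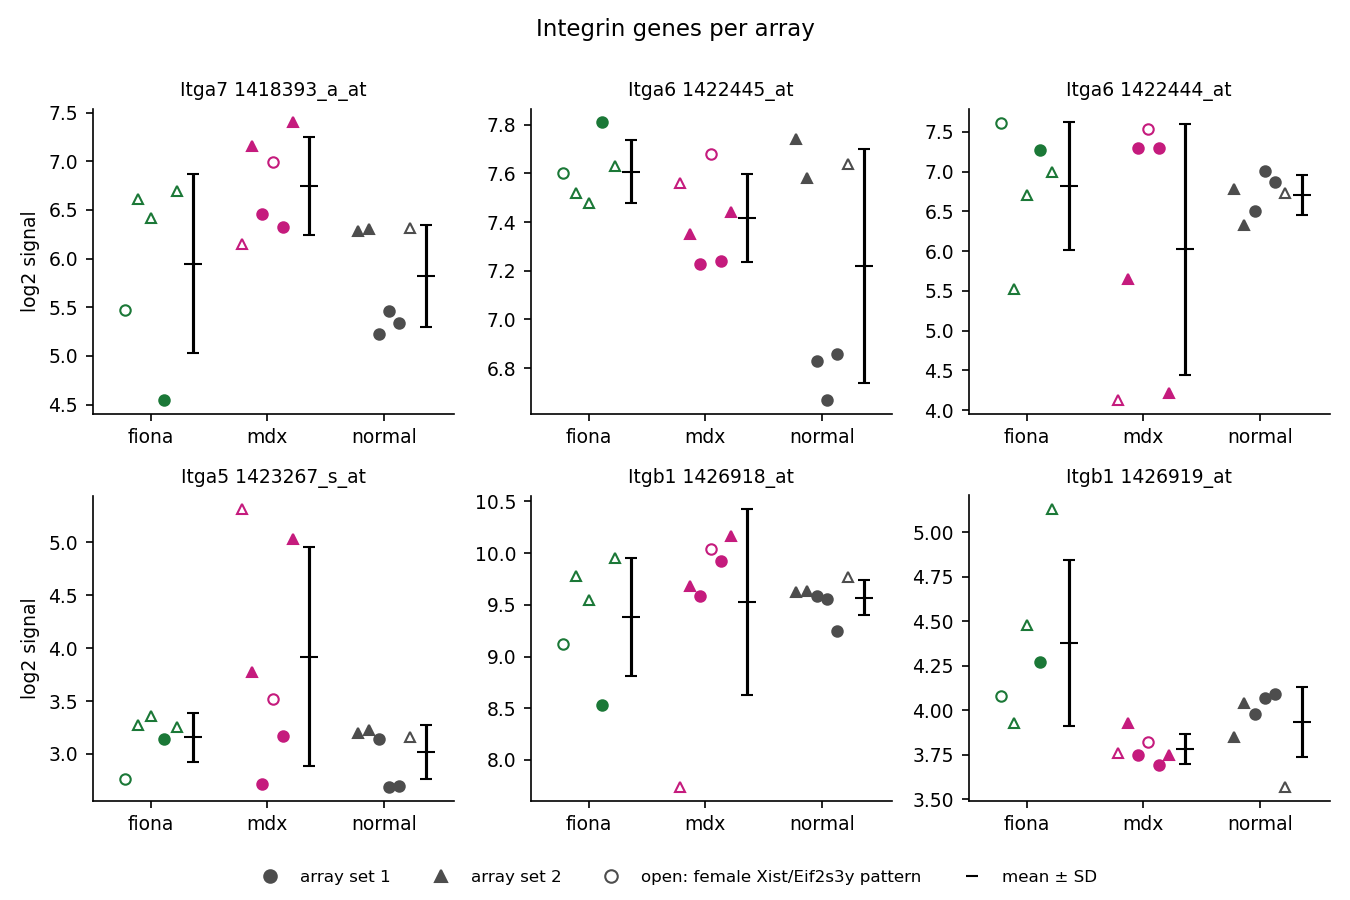
Deposited log2 signal of integrin probe sets per array, for fiona, mdx and normal muscle from left to right, with symbols and bars as in the plot of laminin chains. Itga7 is higher on most mdx arrays than on normal arrays of the same array set, the mdx arrays of set 2 are low on Itga6 1422444_at but not on 1422445_at, and mdx array 1 is far below the rest on Itgb1 1426918_at.

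Itgb1, the β chain shared by all of these receptors, was read by 6 probe sets. The bright ones were 1426918_at, 1452545_a_at and 1427771_x_at. On 1426918_at the fiona arrays read 9.12, 9.78, 9.55, 8.53 and 9.95, against a range of 7.74 to 10.17 with a median of 9.80 on the mdx arrays and 9.25 to 9.77 with a median of 9.60 on the normal arrays. All values but those of mdx array 1 and fiona array 4 lay between 9.12 and 10.17. The difference was −0.14 between fiona and mdx muscle (SE 0.37, adjusted p = 0.799), −0.05 between mdx and normal muscle (SE 0.35, adjusted p = 0.933) and −0.18 between fiona and normal muscle (SE 0.37, adjusted p = 0.801). Differences on 1452545_a_at and 1427771_x_at were also not called. A single array decided this for the fiona comparison: without mdx array 1, which read 6.07 and 5.31 on these probe sets, both were called as lower in fiona samples, at −0.92 (adjusted p = 0.0299) on 1452545_a_at and −0.91 (adjusted p = 0.0345) on 1427771_x_at. The direction also differed between the array sets, and in set 2 it depended on the same array. On 1452545_a_at fiona minus mdx came to −1.83 (adjusted p = 0.0193) in set 1 and 0.81 (adjusted p = 0.446) in set 2, where mdx array 1 belongs. The other mdx arrays of set 2 read 9.05 and 9.07 on it, against a fiona mean of 8.87 in that set.

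The dimmer Itgb1 probe sets 1426919_at and 1426920_x_at went the other way. On 1426919_at the fiona arrays read 4.08, 3.93, 4.48, 4.27 and 5.13, against 3.69 to 3.93 on the mdx arrays and 3.57 to 4.09 on the normal arrays. It was higher in fiona than in mdx muscle by 0.60 (1.51-fold, SE 0.17, adjusted p = 0.0149). On 1426920_x_at, whose probes can cross-match other sequences, the difference was 0.32 (1.25-fold, SE 0.08, adjusted p = 0.013). Both calls held in all 17 fits without a single array and with equal array medians (0.49 and 0.22). Neither was called between fiona and normal muscle (adjusted p = 0.212 for each). The bright and the dim probe sets of Itgb1 therefore gave no common direction between fiona and mdx muscle. The sixth, 1438119_at, was below background on all arrays, and its call between fiona and mdx muscle was lost with equal array medians (adjusted p = 0.272).

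**Figure D3:**
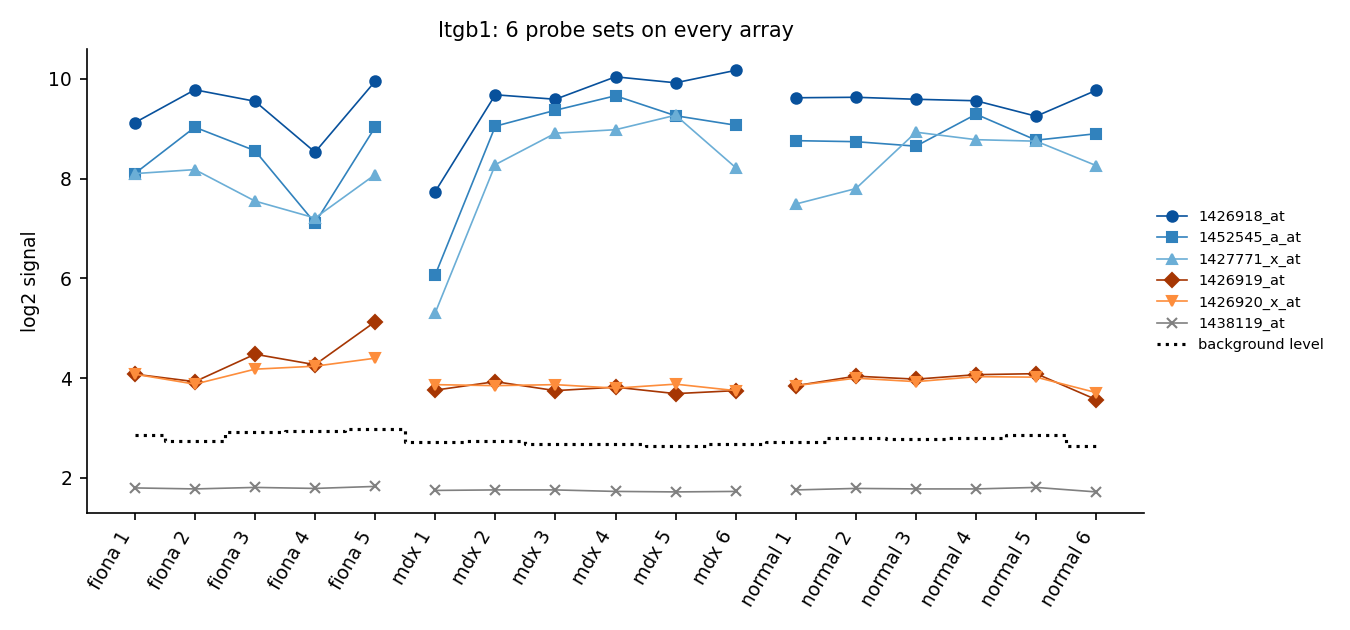
Deposited log2 signal of the 6 Itgb1 probe sets on each array, fiona at the left, mdx in the middle and normal at the right, with the background level of each array dotted. The 3 bright probe sets fall together on mdx array 1 and, less so, on fiona array 4, while 1426919_at and 1426920_x_at lie between 3.57 and 5.13 and are highest on fiona array 5.

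Taking the 16 probe sets above background together, the differences between mdx and normal muscle were positive for Lama2, Lama4, Lamb1, Lamc1, Itga7 and Itga5 and near 0 or of mixed sign for Lama5, Lamb2, Itga6 and Itgb1. None was called as deposited. With the array set as a block, 4 member probe sets were called higher in mdx than in normal muscle, beside 4.73% of all probe sets called higher in that fit: Lama2 (adjusted p = 0.0439), Lama4 (0.0311), Lamb1 1424114_s_at (0.0477) and Itga7 (0.0339). The block was drawn from these same values, so these calls add no independent support to the fit without it. The median difference of the 10 genes, each on its brightest probe set, was 0.72 between mdx and normal muscle, against −0.04 for all genes, and −0.70 between fiona and mdx muscle, against 0.08 for all genes. These medians depended on the choice of probe set. With the mean of a gene's probe sets they were 0.36 between mdx and normal muscle and −0.335 between fiona and mdx muscle, and over all 22 probe sets, the 6 near background included, they were −0.02 and −0.06.

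**Figure D4:**
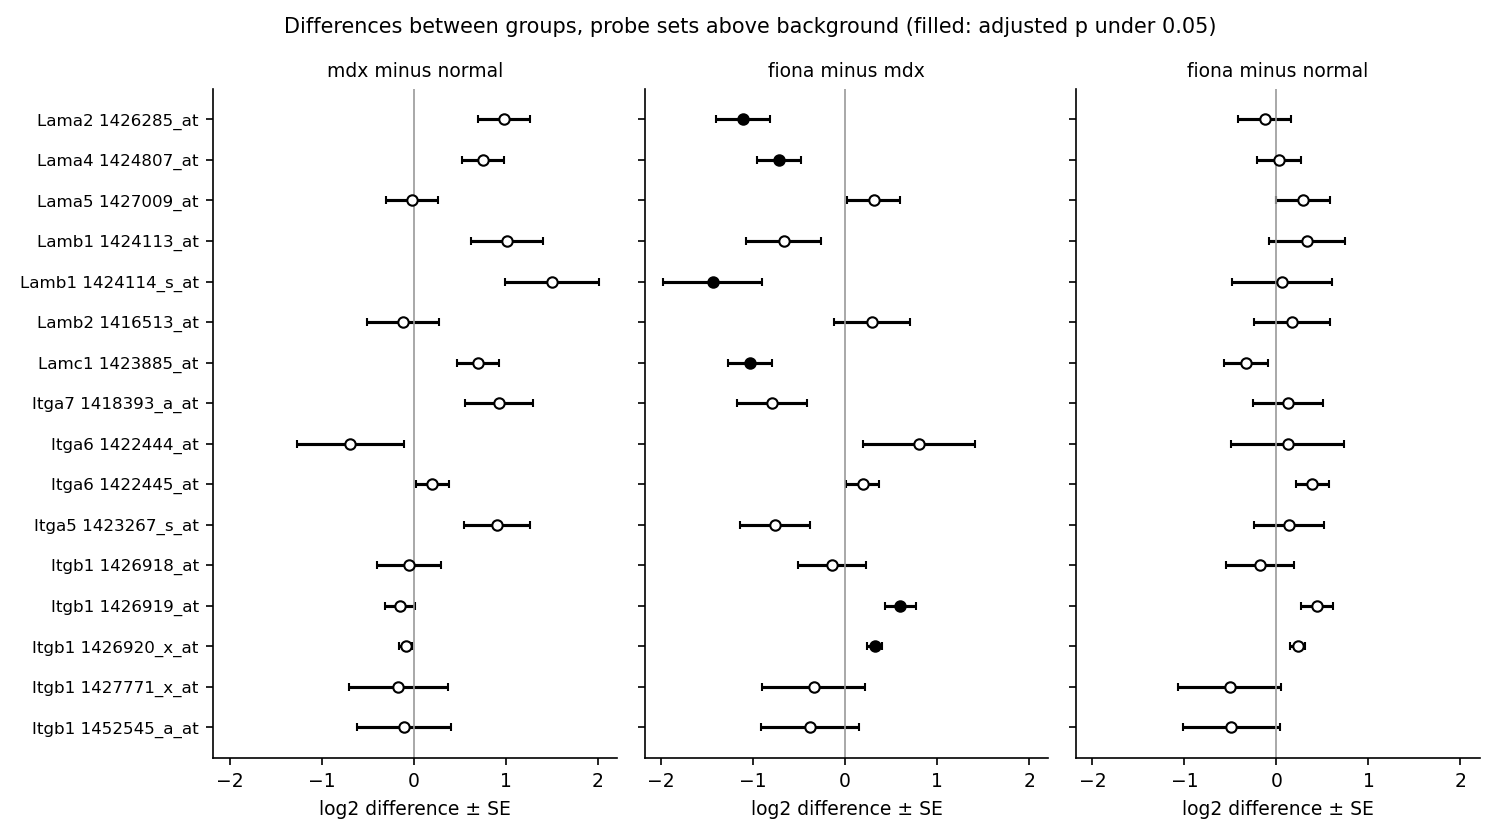
Log2 differences ± SE from the limma fit for the 16 member probe sets above background, for mdx minus normal, fiona minus mdx and fiona minus normal muscle; filled points have an adjusted p under 0.05. Lama2, Lama4, Lamb1 1424114_s_at and Lamc1 are filled and negative for fiona minus mdx and 2 dim Itgb1 probe sets filled and positive, and no point is filled in the other panels.

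In both comparisons with mdx muscle, the differences of Lama2, Lama4, Lamb1 and Lamc1 had the same sign within each array set. For Lamb1 1424113_at between fiona and mdx muscle in set 2, the sign depended on mdx array 1, at 8.49. The other mdx arrays of that set, 2 and 6, read 6.29 and 7.06, against a fiona mean of 7.05. Without mdx arrays 1 and 4, a choice made after seeing the data, this probe set differed by −0.10 over both sets. Between fiona and mdx muscle, Lama2 differed by −1.55 in set 1 and −0.75 in set 2, Lamc1 by −1.26 and −0.87, Lama4 by −0.90 and −0.62, and Lamb1 on its brighter probe set by −1.13 and −0.23. The fiona arrays of set 1 were also those with the highest Utrn on 1427569_a_at (4.94 and 7.28, against 3.04, 3.78 and 2.48 in set 2). Array set and Utrn signal therefore cannot be told apart within the fiona group. Between mdx and normal muscle, Lama2 differed by 0.96 in set 1 and 1.00 in set 2, Lamc1 by 0.50 and 0.90, Lama4 by 0.99 and 0.51, Lamb1 by 1.10 and 0.92 and Itga7 by 1.25 and 0.60. Between fiona and normal muscle the signs differed between the sets: Lama2 differed by −0.59 in set 1 and 0.25 in set 2, Lamc1 by −0.76 and 0.03, Lama4 by 0.09 and −0.11 and Lamb1 by −0.03 and 0.68. With 2 or 3 arrays a group, 9 of 22 member probe sets were called between fiona and mdx muscle in set 1, beside 35.5% of all probe sets. They were Lama2 (adjusted p = 0.0356), Lamc1 (0.0434), Itga7 (0.0204), 5 of Itgb1 and the Itga5 probe set below background. In set 2, 0 were called by limma, beside 0.554% of all. There, 6 of the 22 had an unadjusted limma p under 0.05, as had 4008 of all 20380 probe sets.

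**Figure D5:**
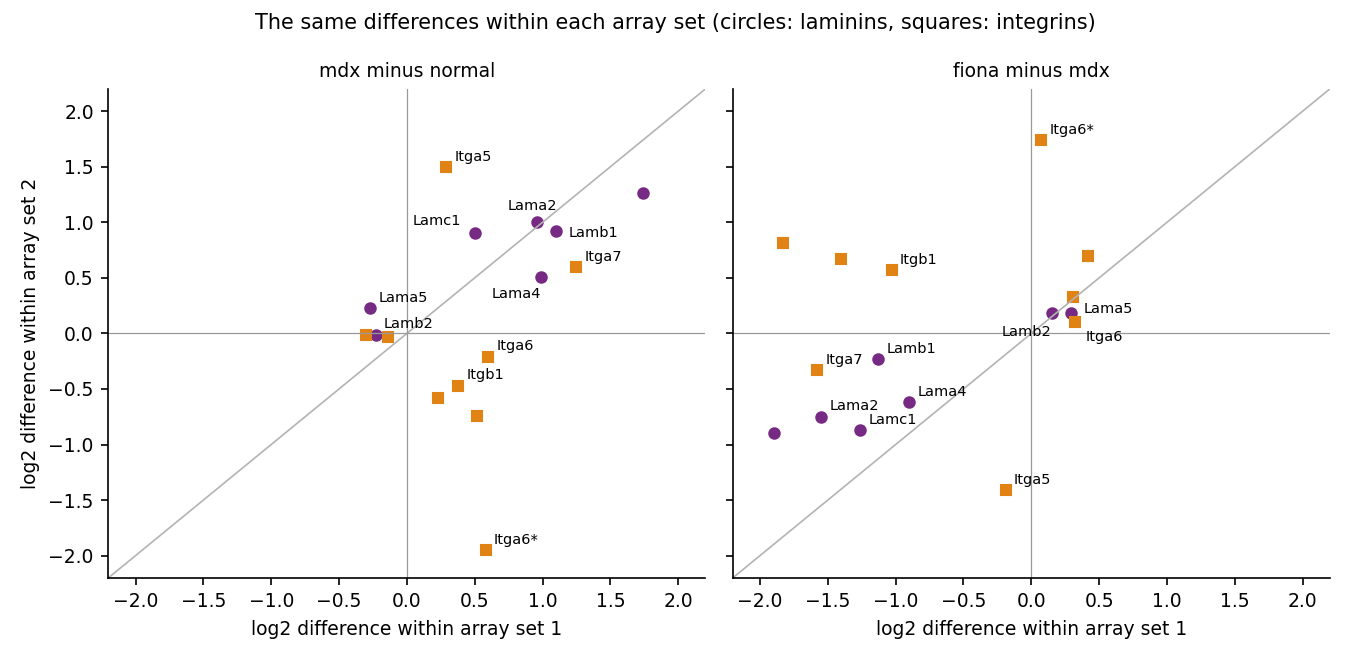
Log2 difference within array set 1 (horizontal) against that within array set 2 (vertical), for mdx minus normal and fiona minus mdx, of the 16 member probe sets above background, with laminins as circles and integrins as squares; the grey diagonal marks equal values, and Itga6* is probe set 1422444_at. In both panels Lama2, Lama4, Lamb1 and Lamc1 have the same sign in both sets. For the brighter Lamb1 probe set, the sign of fiona minus mdx in set 2 depends on mdx array 1. The bright Itgb1 probe sets, which are low on that same array, and Itga6 1422444_at change sign or size between sets.

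The female pattern touched the same results. The mdx arrays with the highest Lama2 were arrays 4 and 1, at 8.24 and 7.77, and both had that pattern, as did 4 of the 5 fiona arrays. Without mdx arrays 1 and 4, a choice made after seeing the data, the difference of Lama2 between mdx and normal muscle was 0.62 (adjusted p = 0.292). When all 7 arrays of the pattern were left out, a single fiona array remained, which is assumed to vary like the other groups. Lama2 then differed by −0.81 (adjusted p = 0.307) between fiona and mdx muscle, Lamc1 by −1.18 (0.0944), Lama4 by −0.94 (0.139) and Lamb1 1424114_s_at by −0.11 (0.943), so that no laminin was called. The member probe sets called in this fit, beside 12.6% of all, were those of integrins. Itga7 (−2.28) and the bright Itgb1 probe sets 1426918_at (−1.31) and 1452545_a_at (−2.08) were lower in the fiona array. The dim Itgb1 probe sets 1426919_at (0.49) and 1426920_x_at (0.41) were higher. That array, fiona 4, is of array set 1, whereas the remaining mdx arrays were of both sets. In normal muscle Itga7 averaged 5.34 in set 1 and 6.30 in set 2. Fiona array 4 was also the lowest fiona array on each of the lower probe sets (4.55, 8.53 and 7.11). The fit did not adjust for array set, so these differences mix group with array set and rest on a single fiona array. With the pattern as a covariate in the fit of all arrays, Lama2 (−1.31, adjusted p = 0.0122), Lamc1 (−1.07, 0.0142), Lama4 (−1.03, 0.00467) and Lamb1 1424114_s_at (−1.74, 0.03) were called, beside 39.8% of all probe sets.

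Whether members changed unequally was tested directly, for 5 pairs in 3 comparisons, with two-sided exact permutation tests of the within-array difference and adjustment over the 15 tests. None passed. The smallest p was for Itga6 minus Itga7 between mdx and normal muscle, where the change of Itga6 minus that of Itga7 was −0.73 (SE 0.21, exact permutation p = 0.00866, adjusted p = 0.13), with 5 of 6 mdx arrays below all normal arrays in this measure. Without mdx array 1 it passed (−0.88, adjusted p = 0.0325). For Lama5 minus Lama2 between fiona and mdx muscle the difference was 1.42 (SE 0.54, exact permutation p = 0.039, adjusted p = 0.292). For Lamb1 minus Lamb2 it was −0.96 (SE 0.70, exact permutation p = 0.227, adjusted p = 0.426). That Lama2 was called and Lama5 was not is thus not shown to be a difference between these genes.

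Markers of other cell types were read in the same comparisons. In bulk muscle, fewer cells of a type and less RNA per cell cannot be told apart. Of 9 fibroblast markers, 7 passed as lower in fiona relative to mdx samples. Their summed log2 signal was 11.84 to 13.77 in fiona, 14.08 to 14.94 in mdx and 13.11 to 14.08 in normal samples, and 2 of them (Lum and Col3a1) passed as higher in mdx relative to normal samples. Of 10 macrophage markers, 8 passed as lower in fiona relative to mdx samples and 7 as higher in mdx relative to normal samples, with summed signals of 9.17 to 10.79 in fiona, 12.61 to 13.92 in mdx and 9.06 to 10.45 in normal samples. The macrophage markers Cd68 and Cd14 were at background on at least 9 arrays. Of 8 genes of myoblasts and regenerating fibres, 4 (Myog, Myh3, Myh8 and Ncam1) passed as lower in fiona relative to mdx samples, 1 (Pax7) as higher, and the same 4 as higher in mdx relative to normal samples. Their summed signals lay between 11.05 and 12.35 in fiona, 12.40 and 13.27 in mdx and 11.15 and 12.35 in normal samples. Of 10 endothelial markers, 0 were called by limma in any comparison, and their summed signals overlapped between fiona (10.10 to 11.06), mdx (9.78 to 10.63) and normal samples (9.96 to 11.12). Of 9 smooth muscle and pericyte markers 1, Rgs5, was called, higher in fiona than in mdx muscle and lower in mdx than in normal muscle. Of 5 measured Schwann cell markers, 1 at background was called higher in fiona than in mdx muscle. Of all probe sets, 6.05% were called lower and 34.1% higher in fiona than in mdx muscle, and 4.05% between mdx and normal muscle. The part of these cell types in the laminin values was not tested.

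Among other genes of the basement membrane, both nidogen genes were lower in fiona than in mdx muscle. Nid1, whose product binds the γ1 chain and ties laminin to collagen IV, had 8.36 ± 0.28 in fiona (SD, n = 5), 9.59 ± 0.45 in mdx and 8.82 ± 0.30 in normal muscle (n = 6 each). It was lower in fiona than in mdx muscle by −1.23 (SE 0.21, adjusted p = 0.00312) and higher in mdx than in normal muscle by 0.78 (SE 0.20, adjusted p = 0.039). Its relative Nid2 was lower in fiona than in mdx muscle, at 3.79 ± 0.41 against 4.96 ± 1.08 (difference −1.17, SE 0.40, adjusted p = 0.032). Of the 19 genes listed, 2 were called lower and 4 higher in fiona than mdx muscle, beside 6.05% and 34.1% of all probe sets. Of the higher ones, Col4a4 alone was above background on most arrays (3.89 ± 0.16 in fiona and 3.62 ± 0.13 in mdx muscle, difference 0.27, SE 0.09, adjusted p = 0.0307). The median difference of the list between fiona and mdx muscle was −0.09, against 0.08 for all genes. The 4 measured genes of other laminin chains (Lama1, Lama3, Lamb3 and Lamc3) were below background on all arrays, and 3 of them were called higher in fiona than in mdx muscle at that level.

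Between mdx and normal muscle 4.05% of all probe sets were called. Of 22 measured genes for other matrix receptors and their ligands, 2 were called higher in mdx than in normal muscle. They were Rpsa, which encodes a ribosomal protein also described as a laminin receptor (10.99 ± 0.22 in mdx and 10.52 ± 0.15 in normal muscle, difference 0.47, SE 0.09, adjusted p = 0.00782), and Cd44, a hyaluronan receptor carried by many leukocytes (adjusted p = 0.0183). Cd44 was above background on all 6 mdx arrays and on 1 of 6 normal arrays. Between fiona and mdx muscle 3 genes of the list were called lower and 7 higher, beside 6.05% and 34.1% of all probe sets. Of the higher ones, Itga8 and Itgb3 were below background on all arrays. Fibronectin, Fn1, the ligand of the Itga5 receptor, measured 8.13 ± 0.84 in fiona and 9.78 ± 0.71 in mdx muscle (difference −1.65, SE 0.41, adjusted p = 0.013). Itga9, whose integrin binds tenascin, measured 5.82 ± 0.40 in fiona and 5.19 ± 0.19 in mdx muscle (difference 0.63, SE 0.16, adjusted p = 0.013). Vcam1, a leukocyte adhesion molecule, was higher in fiona muscle by 0.51 (SE 0.16, adjusted p = 0.0231) and Cd44 was lower (adjusted p = 0.0146). The median difference of the list was −0.02 between mdx and normal muscle, against −0.04 for all genes, and −0.08 between fiona and mdx muscle, against 0.08 for all genes.

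Inside the cell, integrins are tied to actin by adapter proteins, and 28 of 33 listed genes for these were measured. Between mdx and normal muscle 2 were called higher and 1 lower, beside 4.05% of all probe sets called. Fermt3, the kindlin of blood cells, measured 6.73 ± 0.86 in mdx and 3.31 ± 0.24 in normal muscle (difference 3.42, SE 0.34, adjusted p = 2.49e-05). Vinculin, Vcl, measured 9.66 ± 0.31 in mdx and 8.95 ± 0.12 in normal muscle (difference 0.70, SE 0.14, adjusted p = 0.00825). Lims2, an adapter bound by the integrin-linked kinase, was lower in mdx muscle (6.72 ± 0.21 against 7.43 ± 0.40 in normal muscle, difference −0.71, SE 0.16, adjusted p = 0.0176). Between fiona and mdx muscle 6 of the list were called lower, the largest differences being Fermt3 (−3.11, SE 0.36, adjusted p = 0.000142), the non-muscle α-actinin Actn1 (−1.57, SE 0.45, adjusted p = 0.0164), Rsu1 (−1.10, SE 0.26, adjusted p = 0.013) and filamin A, Flna (−0.77, SE 0.22, adjusted p = 0.0169). A single gene, Src, was called higher, by 0.10. Of all probe sets, 6.05% were called lower and 34.1% higher in fiona than in mdx muscle. The median difference of the list was 0.09 between mdx and normal muscle, against −0.04 for all genes. Between fiona and mdx muscle it was −0.13, against 0.08 for all genes. Of the 10 measured enzymes that build the laminin-binding sugar of dystroglycan, 0 were called by limma in any comparison, and the smallest p between mdx and normal muscle was that of Dpm2 (difference 0.30, SE 0.11, adjusted p = 0.162). Between fiona and normal muscle 0 genes of these 5 lists were called. The gene with the smallest p of its list was Rpsa among the receptors (0.39, adjusted p = 0.212), Crk among the adapters (−0.65, adjusted p = 0.212), Dpm2 among the enzymes (0.29, adjusted p = 0.212), Lama1, below background, among the other laminin chains (0.08, adjusted p = 0.218) and Nid1 among the other basement membrane genes (−0.46, adjusted p = 0.226).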

How the data were processed

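The 10 members, the gene lists and the tests were chosen with earlier results of these data known. Each probe set had 1 deposited log2 value per array. RMA and GCRMA both appear in the submitters' processing notes, and the sources do not say which gave the deposited log2 values. RMA-type methods set the arrays to a common scale, so a change shared by most genes can be reduced or lost. The deposited array medians still differed, from 3.52 to 3.82. Per the labels, 8 µg of total RNA was labelled per array.

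Of 22690 probe sets, 64 controls, 691 with several gene symbols and 1555 with none were left out, which leaves 20380. No pair of arrays was identical (correlations 0.939 to 0.996, array medians 3.52 to 3.82). The sources used here name no genome build for the table, so positions are given only for the RefSeq promoter windows. The 3 group means were fitted with limma 3.58.1 in R 4.3.3 (lmFit, eBayes, Benjamini-Hochberg over all probe sets) and the script was tested on simulated data. Pairs of members were compared with exact permutation tests. Precision is limited by the number of arrays.

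Replicate numbers from the labels were checked for pairing by correlating the residuals of same-numbered arrays. For mdx and normal muscle all 6 correlations were above 0.1 (0.104 to 0.61), and the fit with the number as a block called 0 of 22 members there, as did the fit without it. The same number gave the best match only for replicate 2. Same-numbered mdx and normal arrays always fell in the same array set. For the fiona comparisons the correlations had mixed signs, and the numbers were not taken as pairs. They were positive where same-numbered arrays shared an array set and negative where they did not.

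Named genes were every member, Dmd and Utrn, and per list and comparison up to 4 called genes with the largest change, or the gene with the smallest p where none was called. Some of these were left out for length. Listed genes and markers were read on the probe set with the highest mean signal, whereas the shares beside them cover all probe sets. With 1 probe set per gene, 841 of 12393 genes were called lower and 3977 higher in fiona than in mdx muscle. Alternatives covered scaling, a filter on dim probe sets, array set, sex pattern, single arrays left out, the spread model and the choice of probe set. Promoter windows came from RefSeq (GRCm38.p6). Plots were made in matplotlib 3.10.9 under Python 3.11.15.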

Additional observations from a re-analysis of the deposited data

Results flagged for a closer look

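In 3 of 48 groups of probe set values (6.25%), 1 array lay far from all others of its group, where chance alone marks about 5%. All 3 were mdx array 1 on the bright probe sets of Itgb1, which share a gene and so are not independent. On 1426918_at it read 7.74, against 9.59 to 10.17 on the other mdx arrays. On 1427771_x_at it read 5.31, against 8.22 to 9.27, and on 1452545_a_at 6.07, against 9.05 to 9.66. The dim probe sets 1426919_at and 1426920_x_at read 3.76 and 3.87 on this array, within the range of the other mdx arrays. The same array belongs to array set 2, had the female pattern, and held the second highest Lama2 and Lamb1 of the mdx group. What sets it apart was not tested.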

How the results depend on the processing

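Counts of member probe sets called moved with the processing. For mdx against normal muscle, where 0 of 22 were called, the count was 1 with dim probe sets left out, 4 with the array set as a block, 3 in set 1 alone, 1 with the sex pattern as a covariate and 3 with both array set and sex pattern, an alternative chosen after seeing the data. Leaving out single arrays gave 0 to 3, the 3 being Lama2 and both Lamb1 probe sets without mdx array 2; without mdx array 3 Lamc1 was called, and without normal array 4 Lama2. For fiona against mdx muscle, where 8 were called, the count was 5 with equal array medians and 3 after quantile normalization. The count was 5 with dim probe sets left out, 0 in set 2 alone, 3 with 1 probe set per gene and 3 with the mean of a gene's probe sets. It was 5 without mdx array 1 and fiona array 4, and 5 without mdx arrays 1 and 4, both chosen after seeing the data, and leaving out single arrays gave 5 to 9, the lowest without fiona array 5. With the replicate block it was 0, where 598 of all probe sets were called. In that fit 8 of the 22 members had an unadjusted limma p under 0.05, as had 9046 of all 20380 probe sets. The numbers were not taken as pairs there. For fiona against normal muscle, where 0 were called, the count was 0 to 1 when single arrays were left out, the 1 being Itgb1 1426920_x_at without fiona array 2. Counts for fiona muscle without arrays of the female pattern are left out, since fiona array 4 alone remained of its group.

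The direction turned for Itga6 between mdx and normal muscle, at 0.58 on 1422444_at in set 1 alone and −0.21 on 1422445_at in set 2 alone. It turned for Itgb1 between mdx and normal muscle without arrays of the female pattern, at 0.31 on 1426918_at and 0.35 on 1452545_a_at, and at 0.43 on 1452545_a_at without mdx array 1 and fiona array 4. Over all probe sets, fiona against mdx muscle called 8187 as deposited, 2381 with equal array medians and 2899 after quantile normalization. This comparison called 3138 with dim probe sets left out, 4818 and 5090 by gene, 4742 without mdx arrays 1 and 4, and 113 in set 2 alone. For mdx against normal muscle it was 826 as deposited, 1775 with the array set as a block, 1676 with array set and sex pattern, 4740 in set 1, 356 in set 2, 499 without arrays of the female pattern and 531 without mdx arrays 1 and 4. Fiona against normal muscle called 1 as deposited and 1366 without fiona array 2. The causes were not tested. Of the other values, 1379 for single members and 227 for pairs kept their direction and their side of the threshold. With the same direction, 37 for members and 1 for pairs became calls, and 44 for members lost their call. A further 83 for members and 32 for pairs changed sign with an unadjusted p of at least 0.05 on both sides. Among them was Itgb1 between fiona and mdx muscle in set 2 alone, where mdx array 1 belongs. It came to 0.57 on 1426918_at, 0.67 on 1427771_x_at and 0.81 on 1452545_a_at. Itgb1 1452545_a_at between mdx and normal muscle came to 0.52 in set 1 alone. Lamb2 between fiona and mdx muscle came to −0.78 without arrays of the female pattern. Probe sets near the background of 2.64 to 2.99 give no usable level, which holds for 6 of the 22.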
